A study of Saccharomyces cerevisiae with 11 samples.

Results

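Budding yeast cultures that expressed a nuclear huntingtin fragment with a short glutamine tract (Htt-25Q-NLS) were described by what their RNA was made of after induction in galactose. The 5 libraries of these cultures, of 11 in the series, were averaged for the ranking, the 16 rRNA genes among the 7126 genes listed were left out, and the other 7110 were ranked by mean TPM. TPM, a relative abundance of transcripts, is an estimated read count divided by the length of the gene open to reads and scaled so that each library sums to 1000000. Every cell carried *GAL-NLS-Htt25Q-GFP::LEU2* integrated in the W303 background, so that the fragment, fused to a nuclear localization signal and to GFP, was made under a galactose promoter. In 3 libraries, 25Q [SLX5] clones a, b and c, the cells also held the centromeric *HIS* plasmid BOK372 with *SLX5*, a subunit of a SUMO-targeted ubiquitin ligase, and in 2 libraries, 25Q [V] clones a and b, they held the empty vector BOK333. All cultures grew at 25 °C in synthetic medium with 2% raffinose and then received 2% galactose for 4 h. The clones were separate cultures of one strain and plasmid, and one more 25Q [V] library, which the study removed for its rRNA content, was not used here. The plasmids divide the libraries, but no test between groups was made, and every value below is a description.

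The libraries held between 19942070 and 29440801 estimated counts. Both clone a libraries had more rRNA, with 2.40% of counts in 25Q [SLX5] a and 2.21% in 25Q [V] a, against 0.254% to 0.364% in the other 3 libraries. Over the 6198 genes with a mean of at least 1 TPM, Spearman's rho between pairs of libraries was 0.989 to 0.994, across genes that are not independent replicates, and in no pair did more than 86 genes differ by over 2-fold on the log2(TPM + 1) scale. 25Q [V] a stood somewhat apart: the 4 pairs it forms held the lowest 4 of the 10 values of rho. In bulk RNA a smaller fraction of cells that express a gene and less RNA per cell cannot be told apart, here and throughout.

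Yeast takes up galactose through the permease Gal2 and turns it into glucose phosphate by the Leloir pathway. The transcription factor Gal4 switches these genes on, Gal80 holds Gal4 in check and Gal3 relieves Gal80 when galactose is present. Raffinose is cut outside the cell by invertase and does not impose strong glucose repression, so genes of respiration and of stored sugars are not shut off as they are in glucose. Genes for ribosomal proteins, glycolysis and the cell wall are among the most highly expressed in growing yeast cells.

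The message pool was steep at the top and long at the bottom. A single gene lay above 10000 TPM, 205 lay from 1000 to 10000 TPM and held 43.7% of all TPM, and 1377 lay from 100 to 1000 TPM and held 39.4%. The largest class by number was the 3421 genes from 10 to 100 TPM, which together made up 13.0% of TPM. The median gene stood at 26.4 TPM, and the median protein-coding gene, of the 6007 that RefSeq lists as such, at 33.7 TPM. The 20 highest genes took 13.7% ± 0.153 of TPM (SD, n = 5), the 100 highest 33.0% ± 0.291, and the 1000 highest 77.9% ± 0.554. A mean of at least 1 TPM was reached by 87.2% of the ranked genes and by 94.5% of the protein-coding ones.

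**Figure D1:**
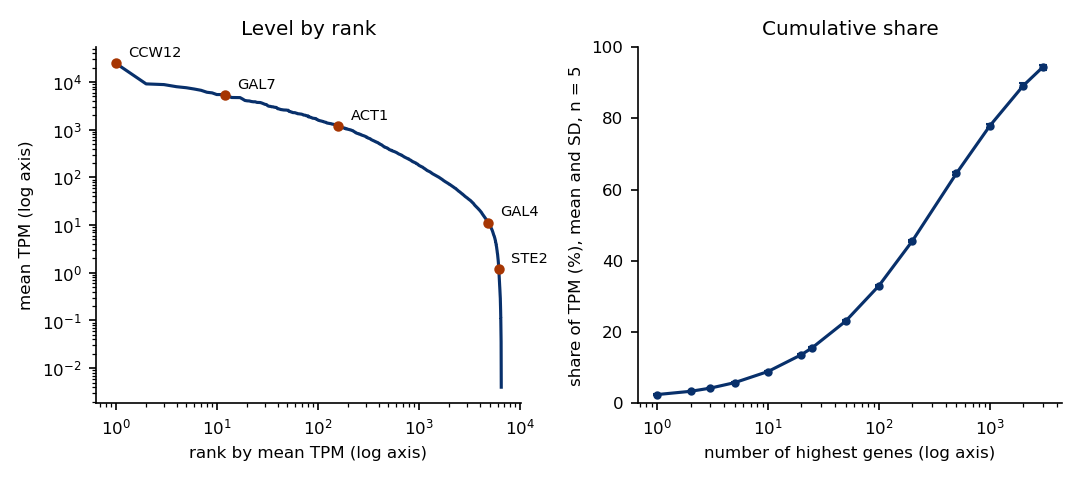
Left, mean TPM of each gene with a mean above 0 against its rank, both on log axes, with *CCW12*, *GAL7*, *ACT1*, *GAL4* and *STE2* marked. Right, the summed share of TPM (%) of the highest genes, as mean and SD of 5 libraries, which passes 33.0% at 100 genes and 77.9% at 1000 genes.

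*CCW12*, which encodes a small mannoprotein bound to the cell wall, was the highest gene in every library. It had 23953, 24712 and 24760 TPM in 25Q [SLX5] clones a, b and c, and 25270 and 25022 TPM in 25Q [V] clones a and b. Those 5 values spread by 2.00% of their mean (the coefficient of variation, SD over mean), and *CCW12* alone held 2.47% ± 0.0495 of TPM (SD, n = 5). The next gene was *HSP12*, which encodes a small membrane-associated protein made under stress and in slow growth. *HSP12* had 10739, 10071 and 9132 TPM in 25Q [SLX5] clones a, b and c, and 6789 and 8852 TPM in 25Q [V] clones a and b. Its lowest level was in 25Q [V] a, and its coefficient of variation of 16.5% was the largest among the 25 highest genes. Behind it came another wall mannoprotein gene, *CWP2*, at a mean of 8812 TPM, and *RPS30A*, for a protein of the small ribosomal subunit, at 7957 TPM.

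*TDH3*, the main gene for glyceraldehyde-3-phosphate dehydrogenase, had 8173, 7723 and 8108 TPM in 25Q [SLX5] clones a, b and c, and 6453 and 7401 TPM in 25Q [V] clones a and b. The aldolase gene *FBA1* showed the same order of libraries, with 7303, 6773 and 7233 TPM in 25Q [SLX5] and 5632 and 6480 TPM in 25Q [V]. Both glycolytic genes were lowest in 25Q [V] a, where 30.3% of the 5004 genes with a mean of at least 10 TPM were lowest. No difference between the groups was tested. *SED1*, a wall glycoprotein gene that rises as cells leave rapid growth, averaged 7109 TPM and was lowest in 25Q [V] b.

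Further down the 25 highest stood genes of several kinds. The respiratory machinery was present with *ATP19*, a small subunit of the mitochondrial ATP synthase (mean 6085 TPM), and *QCR6*, a subunit of the cytochrome bc1 complex (4725 TPM). Ribosomal protein genes were *RPS28A* (5905 TPM), *RPS26A* (5444 TPM), *RPL33A* (4704 TPM) and *RPS31* (3895 TPM), of which the last is made as a fusion to ubiquitin. *GAL7* (5317 TPM) stood in the twelfth place, the mating pheromone precursor gene *MF(ALPHA)1* (4097 TPM) in the nineteenth, and the alcohol dehydrogenase gene *ADH1* (3998 TPM) close behind. The histone H4 gene *HHF2* (4024 TPM), the elongation factor gene *TEF2* (3730 TPM), the ATP synthase stabilizing factor gene *STF2* (4397 TPM), the sporulation gene *SPO24* (5451 TPM) and the uncharacterized *YDR524C-B* (4701 TPM) completed the nuclear protein-coding genes, with the copper metallothionein pair *CUP1-1* and *CUP1-2*. The *CUP1* genes have identical coding sequences of 186 bases, so their level of 3843 TPM each is one estimate divided between them. *CCW22* (4727 TPM), which RefSeq lists as a pseudogene, and *YEL034C-A* (5111 TPM), which has no RefSeq entry, were the remaining 2.

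**Figure D2:**
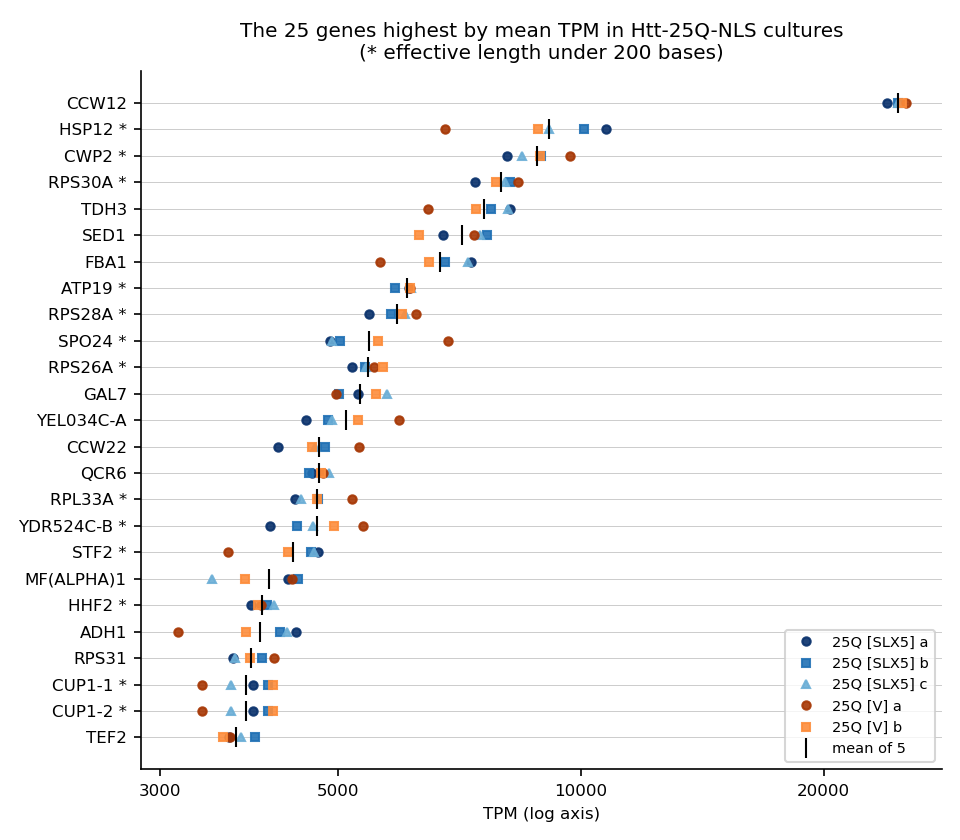
TPM (log axis) of the 25 genes highest by mean TPM, one row per gene and one point per library, with a bar at the mean of 5. *CCW12* lies between 23953 and 25270 TPM, apart from the rest, and asterisks mark 13 genes with an effective length under 200 bases.

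Much of this order rests on length. The effective length is the number of positions in a gene at which a sequenced fragment can start, as the files give it, and it shrinks most, relative to the coding length, in short genes (from 999 to 812 bases for *TDH3* but from 192 to 29.9 bases for *RPS30A*). Dividing by it lifts short genes: 13 of the 25 highest had an effective length under 200 bases, and 7 under 50 bases. *RPS30A* had 9786 estimated counts on average but an effective length of 29.9 bases, and by counts alone it ranked 490th. Only 8 of the 25 highest by TPM were among the 25 highest by counts. By counts the order began with *TDH3* (255654 counts on average), *FBA1* (248448), *SED1* (242573), *CCW12* (219375), *GAL7* (200956) and *GAL1* (197481). With genes under 200 bases of effective length set aside, *CCW12* was still first by TPM, followed by *TDH3*, *SED1*, *FBA1* and *GAL7*. That list also brought in *GPM1* (phosphoglycerate mutase, 3722 TPM), *GAL1* (galactokinase, 3398 TPM), *HXK1* (hexokinase, 3360 TPM), *POR1* (the mitochondrial porin, 3093 TPM), *PDC1* (pyruvate decarboxylase, 3078 TPM) and *TPI1* (triose phosphate isomerase, 3021 TPM).

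The galactose genes were all expressed, over a range from *GAL7* at 5317 TPM to *GAL4* at 11.2 TPM. *GAL7*, the uridylyltransferase of the Leloir pathway, had 5294, 5012 and 5743 TPM in 25Q [SLX5] clones a, b and c, and 4970 and 5569 TPM in 25Q [V] clones a and b. *GAL1*, the galactokinase, had 3583, 3434 and 3672 TPM in 25Q [SLX5] and 2978 and 3324 TPM in 25Q [V]. Both genes were lowest in 25Q [V] a, and so were 8 of the 11 galactose genes in all. Of the 5004 genes with a mean of at least 10 TPM, 30.3% were lowest in that library. *GAL10*, the epimerase, had 2400, 2325 and 2475 TPM in 25Q [SLX5] and 1998 and 2190 TPM in 25Q [V]. *GAL2*, the permease, had 2058, 2072 and 2225 TPM in 25Q [SLX5] and 1852 and 1942 TPM in 25Q [V]. Of the structural genes beyond the Leloir enzymes, *GCY1*, a glycerol dehydrogenase gene under Gal4, averaged 2091 ± 98.8 TPM (SD, n = 5).

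The feeder and control genes were lower. *PGM2*, the main phosphoglucomutase gene, averaged 719 ± 72.1 TPM, against 45.2 ± 2.31 TPM for its minor paralog *PGM1* (SD, n = 5 each). *UGP1*, which makes UDP-glucose, averaged 376 ± 27.3 TPM (SD, n = 5). Among the regulators the inhibitor gene *GAL80* lay between 277 and 300.1 TPM in the 5 libraries, while the sensor gene *GAL3* stood at 115 ± 7.63 TPM and the activator gene *GAL4* at 11.2 ± 0.598 TPM (SD, n = 5 each). The mRNA of the inhibitor was thus present at a higher level than that of the sensor, and that of the activator was the lowest of the group. The 11 galactose genes together made up 1.67% ± 0.102 of TPM (SD, n = 5) and 3.52% of counts, with a coefficient of variation of 2.88% for *GAL80* as the lowest of the 11 and 6.64% as the median. The Htt-25Q-NLS reporter itself is not among the genes listed and has no value here.

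The sites that Gal4 is known to bind, the triplet CGG, then 11 bases of any kind and the triplet CCG, which reads the same on both strands, were searched in the 500 bases before the coding start of 5980 nuclear genes in the R64 genome, whose coding lengths equal those in the files. A match was present before 177 of them, or 2.96%, and before 8 of the 11 galactose genes. The matches before 7 of these genes are shown with the CGG and CCG triplets in capitals. *PGM1*, *PGM2* and *UGP1* had no match in that window, which does not show that Gal4 leaves them alone.
GAL1 and GAL10, shared region, chrII:278568-278584: CGGattagaagccgCCG
GAL1 and GAL10, shared region, chrII:278587-278603: CGGgcgacagccctCCG
GAL1 and GAL10, shared region, chrII:278605-278621: CGGaagactctcctCCG
GAL7, minus strand, chrII:275703-275719: CGGacaactgttgaCCG
GAL2, chrXII:289796-289812: CGGcggtctttcgtCCG
GAL2, chrXII:289815-289831: CGGagatatctgcgCCG
GAL2, chrXII:289879-289895: CGGggcggatcactCCG
GAL2, chrXII:289884-289900: CGGatcactccgaaCCG
GAL3, chrIV:463146-463162: CGGtccactgtgtgCCG
GAL80, chrXIII:171422-171438: CGGcgcactctcgcCCG
GCY1, chrXV:550745-550761: CGGggcagactattCCG
The 3 copies between *GAL1* and *GAL10*, written on the strand of *GAL1*, serve a divergent pair, and 2 of the 4 copies before *GAL2* overlap each other. *GAL4* had 1 match as well. The number of copies did not order the levels: *GAL7*, with 1 copy 176 bases before its start codon, was higher than *GAL1*, with 3, and *GAL80* and *GAL3*, with 1 each, were lower by more than 10-fold.

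Uptake genes for other sugars were mostly low. *SUC2*, the invertase gene for raffinose, had 119, 104 and 118 TPM in 25Q [SLX5] clones a, b and c, and 83.7 and 100 TPM in 25Q [V] clones a and b. Of 18 hexose transporter and sensor genes, 2 passed 100 TPM: *HXT7* at 381 TPM and *HXT6* at 370 TPM, the high-affinity pair whose coding sequences differ at 3 of 1713 bases, so that reads cannot be divided firmly between them. The low-affinity transporter genes *HXT1* and *HXT3*, which are used in high glucose, had 9.35 and 20.3 TPM, and *HXT14* was lowest at 0.060 TPM. The group median of 9.71 TPM lay below the median of all genes. Maltose and isomaltose genes were low as well, from *MAL31* at 33.3 TPM to *MPH2* at 1.29 TPM.

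Glycolysis held 3.79% ± 0.466 of TPM (SD, n = 5) in 17 genes, with a median of 1561 TPM. The isozymes were far from even. *TDH3* stood at 7572 TPM, against 1950 TPM for *TDH2* and 526 TPM for *TDH1*, with *TDH2* differing from *TDH3* at 42 of 999 coding bases and *TDH1* at 111. Hexokinase I (*HXK1*, 3360 TPM) and glucokinase (*GLK1*, 1369 TPM) both exceeded hexokinase II (*HXK2*, 852 TPM), the isozyme that dominates in glucose. The enolase genes *ENO1* and *ENO2* had means of 1561 and 1525 TPM, but *ENO1* was above *ENO2* in every 25Q [SLX5] library and below it in both 25Q [V] libraries. This was not tested, and the *TDH* and *ENO* genes had estimated counts that were not whole, so the division between isozymes is not firm. The pyruvate kinase gene *CDC19* stood at 2916 TPM and its paralog *PYK2*, the lowest of the list, at 45.6 TPM, while the phosphofructokinase subunits *PFK1* and *PFK2* had 237 and 165 TPM.

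Fermentation genes were led by *ADH1* (3998 TPM) and *PDC1* (3078 TPM), and then fell steeply to the mitochondrial enzymes *ALD4* (610 TPM) and *ADH3* (590 TPM). *ADH2*, which oxidizes ethanol when glucose is gone, had 63.4 TPM, and *PDC6* was lowest at 0.948 TPM. The genes for growth on ethanol and acetate were modest: the isocitrate lyase gene *ICL1* had 198 TPM, fructose-1,6-bisphosphatase *FBP1* 48.9 TPM and phosphoenolpyruvate carboxykinase *PCK1* 27.8 TPM. *MDH2*, a cytosolic malate dehydrogenase, was the exception in that list at 907 TPM. Stored sugars were served by *TPS1* (trehalose phosphate synthase, 600 TPM) and *GPH1* (glycogen phosphorylase, 277 TPM), with 9 of 14 members at or above 100 TPM.

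The respiratory genes of the nucleus were high as a group. All 37 exceeded 1 TPM, 36 exceeded 100 TPM and 11 exceeded 1000 TPM. Together they made up 4.31% ± 0.157 of TPM (SD, n = 5) and 2.31% of counts. After *ATP19* and *QCR6* came *CYC1*, the main cytochrome c gene (3610 TPM), the cytochrome c oxidase subunits *COX9* (3170 TPM) and *COX5A* (1951 TPM), and *QCR7* (2115 TPM). The oxygen-regulated isoforms differed: *COX5A* had 1951 TPM against 264 TPM for *COX5B*, which is used at low oxygen, and *CYC1* had 3610 TPM against 846 TPM for *CYC7*. The lowest member was *NDE2*, an external NADH dehydrogenase, at 38.3 TPM. TCA cycle genes had a median of 362 TPM, from *SDH4*, the membrane anchor of succinate dehydrogenase, at 1281 TPM to *CIT3* at 14.1 TPM. The 8 protein genes of the mitochondrial genome were near 0, with *OLI1*, an ATP synthase subunit, highest at a mean of 0.320 TPM, and no mean reached 1 TPM. Yeast mitochondrial messages lack poly(A) tails, and the sources differ on whether an mRNA kit or a total RNA kit was used, so their levels cannot be set against those of nuclear genes here.

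The largest single group was that of the cytosolic ribosomal proteins. Its 137 genes made up 19.4% ± 0.889 of TPM (SD, n = 5) and 8.37% of counts, the difference being their short coding sequences. In 25Q [SLX5] clones a, b and c the share was 18.4%, 19.4% and 18.8%, and both 25Q [V] libraries lay above these, clone a highest at 20.5%. Of the 137, 133 reached 100 TPM and 88 reached 1000 TPM, and 39 of the 100 highest genes belonged to this group. Paralogs were often unequal: *RPS28A* had 5905 TPM and *RPS28B* 293 TPM, and *RPS26A* had 5444 TPM and *RPS26B* 2959 TPM. *RPL41A* and *RPL41B* were listed at 0, but their coding sequences of 78 bases leave an effective length of 0, and up to 79.1 counts were assigned to *RPL41B*. Mitochondrial ribosomal proteins were lower and even, with 65 of 67 at or above 100 TPM, a median of 336 TPM and *MRPS12* on top at 997 TPM.

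Translation factors ran from *TEF2* (3730 TPM) and *TEF1* (2362 TPM), whose coding sequences differ at 2 of 1377 bases, down to *HEF3* (3.01 TPM) and *ANB1* (1.26 TPM). *STM1*, a ribosome-associated factor, stood at 1343 TPM, *TMA19* at 1080 TPM, *SUI1*, initiation factor eIF1, at 1053 TPM, and *EFB1*, the exchange factor for elongation factor 1, at 887 TPM. *HYP2*, the gene for eIF5A that is used in oxygen and that cells require, was listed at 0 with no count in any library. *YEL034C-A*, an ID with the locus number of *HYP2* and the letter that stands for the opposite strand, had 4560, 4850 and 4903 TPM in 25Q [SLX5] clones a, b and c, and 5952 and 5288 TPM in 25Q [V] clones a and b. The same was seen for *DID2* (YKR035W-A), an endosomal sorting gene, which had no count, while YKR035C had 386 to 409 TPM. Whether the counting used strand is not given in the sources used here, so reads of overlapping IDs cannot be told apart, and levels of IDs such as YFR052C-A (1990 TPM), YDR417C (1951 TPM), YDR154C (1841 TPM) and YLL044W (1715 TPM), none with a RefSeq entry, carry the same doubt. The 688 IDs without a RefSeq entry held 3.91% of TPM. Of the 100 highest genes 43 had estimated counts that were not whole, as where reads fit more than 1 gene. *TDH3*, *TDH2*, *HXK1*, *GPM1*, *CDC19*, *PGK1*, *ADH1* and *PDC1* were among them, and *TDH1*, *ENO1* and *ENO2* had such counts as well. Their levels are thus not firm either.

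Cell wall genes formed the next largest group by TPM, at 5.14% ± 0.141 (SD, n = 5), and 3 genes, *CCW12*, *CWP2* and *SED1*, carried most of it. By counts their share was 3.67%, below the 6.13% of glycolysis. Below them the O-mannosylated wall proteins *HSP150* (1580 TPM) and *CCW14* (1256 TPM) were followed by *YGP1* (956 TPM), a secreted glycoprotein gene. Flocculin genes closed the list, with *FLO11* at 6.07 TPM and *FLO1* at 0.606 TPM. General stress genes held 3.26% ± 0.336 of TPM (SD, n = 5), with a median of 426 TPM over 34 members. After *HSP12* came superoxide dismutase *SOD1* (2940 TPM), nicotinamidase *PNC1* (2689 TPM), peroxiredoxin *TSA1* (2016 TPM), *HOR7* (1777 TPM) and *OM45*, a mitochondrial outer membrane protein gene (1714 TPM), and the lowest was *MOH1* at 21.3 TPM.

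Stress response elements, the sites of Msn2 and Msn4 (AGGGG, or CCCCT on the other strand), were found in the 500 bases before 2039 of 5980 genes, or 34.1%, and 2 or more copies before 8.13%. They stood before 30 of the 34 stress genes, 19 of which had 2 or more. *HSP12* had 5 copies, and the region that holds them is shown because this gene was the second highest, with each copy in capitals.
HSP12, chrVI:106816-107076, plus strand: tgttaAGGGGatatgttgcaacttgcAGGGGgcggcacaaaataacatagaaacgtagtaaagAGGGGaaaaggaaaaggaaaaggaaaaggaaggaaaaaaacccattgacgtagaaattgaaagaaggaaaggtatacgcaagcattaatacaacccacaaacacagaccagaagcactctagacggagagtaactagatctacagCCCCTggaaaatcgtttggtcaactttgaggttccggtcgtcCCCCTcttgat
Among the 100 highest protein-coding genes 56 had at least 1 copy, and among the galactose genes 8 of 11 did, *PGM2* with 5. A match of 5 bases is common and describes the sequence only.

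Chaperones (26 genes, median 273 TPM) were led by the cyclophilin gene *CPR1* (2008 TPM), *HSP10* (1106 TPM) and *SSC1* (930 TPM), the last 2 of the mitochondrial folding machinery. The Hsp70 gene *SSA1* stood at 826 TPM, and its heat-induced relatives *SSA4* and *SSA3* were lowest at 35.5 and 13.7 TPM. The proteasome was even, with 33 genes between 63.9 TPM (*RPN4*, its transcription factor) and 409 TPM (*PRE6*). Histone genes all lay above 200 TPM, with *HHF2* (4024 TPM), *HHT2* (2754 TPM), *HHT1* (2143 TPM) and *HHF1* (2022 TPM) above the H2A and H2B genes. Amino acid synthesis genes had a median of 142 TPM, led by the glutamine synthetase gene *GLN1* (2222 TPM), and *GCN4*, the activator of many of them, stood at 1050 TPM. *GCN4* was the highest of 25 transcription factor genes, whose median was 45.2 TPM.

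**Figure D3:**
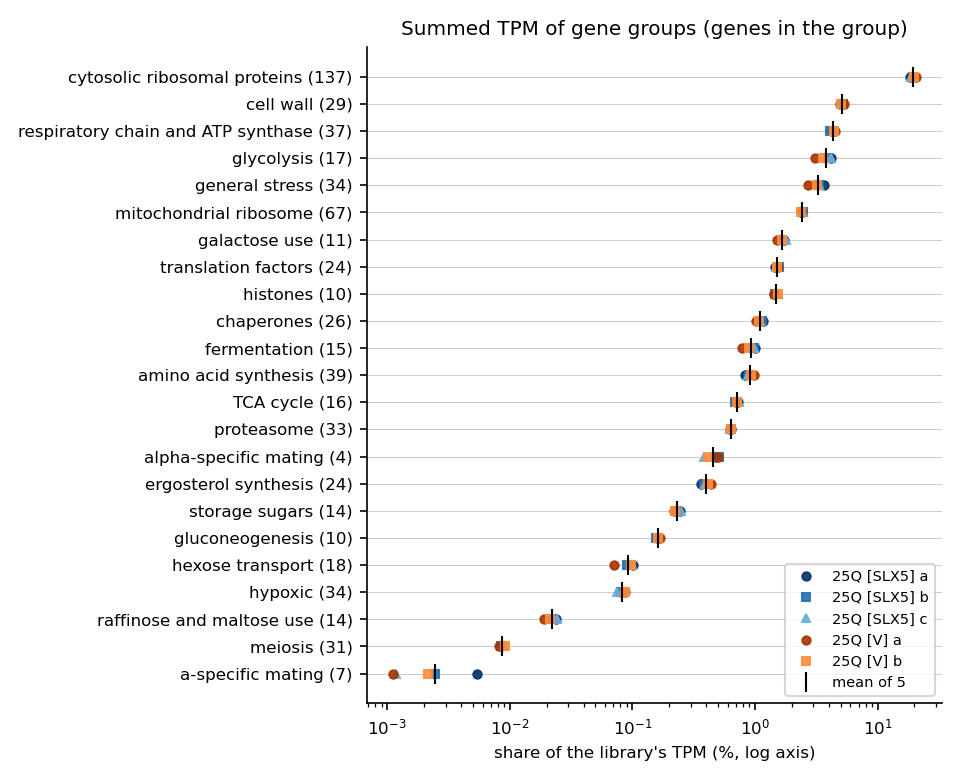
Summed TPM of 23 gene groups as a share of each library's TPM (%, log axis), one point per library with a bar at the mean of 5, and the number of genes in parentheses. Cytosolic ribosomal proteins lead at 19.4% and a-specific mating genes close at 0.00246%, and within most groups the 5 libraries fall together.

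The markers of the strain and plasmids were as follows. *ACT1*, the actin gene, had 1283, 1236 and 1222 TPM in 25Q [SLX5] clones a, b and c, and 1091 and 1143 TPM in 25Q [V] clones a and b. *HIS3*, of histidine synthesis, had 1495, 1558 and 1653 TPM in 25Q [SLX5] and 1430 and 1340 TPM in 25Q [V], both of which carry a *HIS* plasmid. *LEU2*, which marks the integrated construct, averaged 741 ± 35.2 TPM, while *ADE2* averaged 84.1 ± 3.10 TPM and *TRP1* 33.1 ± 2.94 TPM (SD, n = 5 each). *URA3*, which encodes the last enzyme of uridine monophosphate synthesis and is not named as a marker of either plasmid, was higher than all of these. It had 1770, 1761 and 1701 TPM in 25Q [SLX5] and 1708 and 1760 TPM in 25Q [V], a coefficient of variation of 1.88%. *URA1*, the dihydroorotate dehydrogenase gene, which was chosen after its values were seen, averaged 1083 TPM, against 150 TPM for *URA4* and 61.8 TPM for *URA10* of the same pathway.

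Alpha-specific mating genes were present and a-specific ones near 0. *MF(ALPHA)1*, the alpha factor gene, averaged 4097 TPM, *MF(ALPHA)2* 343 TPM, *STE3*, the receptor for a-factor, 96.4 TPM and *SAG1*, alpha-agglutinin, 39.1 TPM. Of the 7 a-specific genes none exceeded 6.56 TPM (*MFA2*), and the alpha factor receptor gene *STE2* averaged 1.19 TPM. *MFA1*, an a-factor gene of short coding length, was above 0 in 1 library, 25Q [SLX5] a, at 31.9 TPM. Haploid genes such as *FUS3*, a MAP kinase of the mating pathway (165 TPM), and *STE5* (14.5 TPM) were all present. Genes of meiosis were nearly silent, with 31 members that together held 0.00858% of TPM and *DMC1*, a recombinase, highest at 12.1 TPM. Hypoxic genes outside *OLE1* (304 TPM), *ROX1* (297 TPM) and *HEM13* (80.4 TPM) lay below 20 TPM, and their median was 1.82 TPM.

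At the bottom, 576 of the 7110 genes were listed at 0 in all 5 libraries, and 535 had no count. For 385 of the 576 the effective length was itself 0, so that TPM could not be above 0 whatever the reads: this covers all 299 tRNA genes and 32 of 76 snoRNA genes. Among the 113 protein-coding genes at 0, 34 had a mean effective length of at least 200 bases. In order of systematic name the first 15 with a standard name were *AI3*, *AI5_ALPHA*, *AI5_BETA*, *ATP8*, *BI2*, *BI3* and *VAR1* of the mitochondrial genome, *TYC1*, the silent mating gene copy *HMRA1*, *RPL41B*, *RPL41A*, *HYP2*, the telomeric gene *COS12*, *NAG1*, and *SAE3*, which acts in meiosis. Named after their values were seen, *PDR18*, a drug transporter gene with an effective length of 3815 bases, and *AIF1*, an apoptosis factor gene with 950 bases, had no count either. A count of 0 over 5 libraries allows up to 3 counts, or a mean of 0.00382 TPM for *PDR18*, 0.0153 TPM for *AIF1* and 0.0152 TPM for *COS12*, in counting error only. The gene models come from the strain S288C, not from W303.

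High and low genes differed in codon use, introns and position, which the ranking did not use, and in coding length, on which TPM itself depends. The 100 highest nuclear protein-coding genes with an effective length of at least 200 bases had a median effective number of codons, which is low where few synonymous codons are used, of 29.5, against 51.5 over all 5980 genes. Among these 100, 28 had an intron in the coding sequence, against 5.27% of all genes, and the median coding length was 609 bases against 1200 bases. Their median GC content was 44.0% against 39.8%. Introns were not common to all abundant groups: 89 of the 137 cytosolic ribosomal protein genes had one, and no glycolysis, galactose or cell wall gene did. Genes under 1 TPM sat near chromosome ends more often by count: 64 of 307, or 20.8%, began or ended within 20 kb of one, against 4.11% of all genes. Their median coding length was 369 bases, and their median effective number of codons, 51.5, was that of all genes.

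Levels were steady from library to library. Over the 5004 genes with a mean of at least 10 TPM the median coefficient of variation was 6.30%, with 4.36% and 9.52% as quartiles, and 158 genes passed 20% and 19 passed 50%. The spread was larger where the effective length was under 200 bases (median 9.35%, 534 genes) than at 200 or more (6.11%, 4470 genes), and larger from 10 to 30 TPM (7.15%) than from 300 to 1000 TPM (5.42%). Around the means of the 2 plasmid groups the median was 5.29%.

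**Figure D4:**
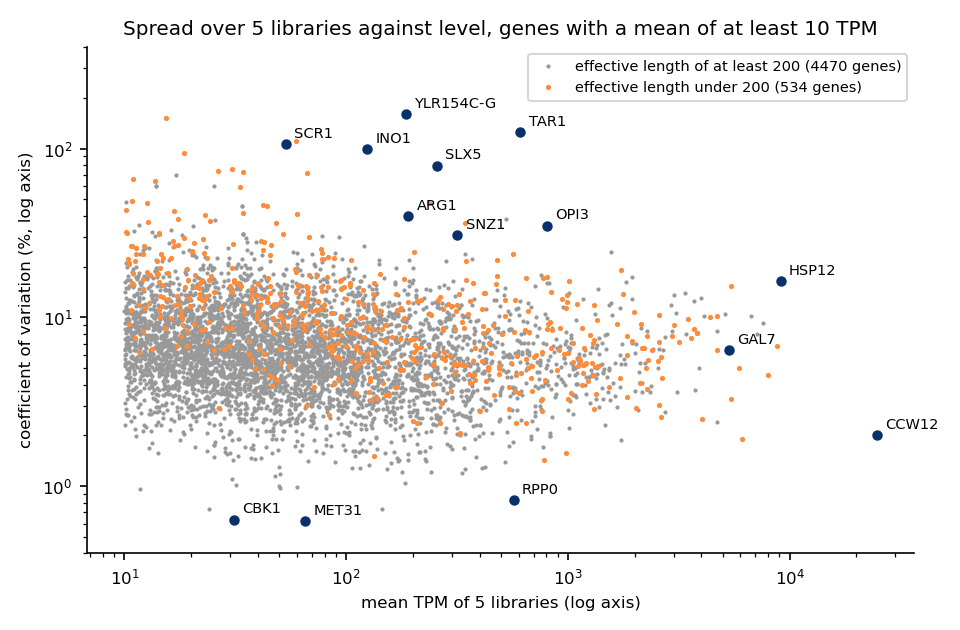
Coefficient of variation over 5 libraries (%) against mean TPM, both on log axes, for 5004 genes with a mean of at least 10 TPM, with genes under 200 bases of effective length in orange. Most genes lie between 2.48% and 17.2%, *INO1* and *SLX5* lie above 75%, and *MET31*, *CBK1* and *RPP0* below 1%.

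The 20 genes with the largest coefficients of variation were mostly short, repeated or made from rDNA. *YLR154C-G* (160%) and *TAR1* (126%) lie in the rDNA. *YLR154C-G*, with an effective length of 10.2 bases, had no TPM in 25Q [SLX5] clones a and b and 236 TPM in c, and 687 and 5.89 TPM in 25Q [V] clones a and b, so that it did not follow the clone letter. *TAR1* had 1534, 6.98 and 88.7 TPM in 25Q [SLX5] clones a, b and c, and 1355 and 63.0 TPM in 25Q [V] clones a and b. Its 2 high libraries were the clone a libraries, the same that held 2.40% and 2.21% of counts in rRNA. *SCR1*, the RNA of the signal recognition particle, had 128, 7.80 and 14.5 TPM in 25Q [SLX5] and 102 and 15.4 TPM in 25Q [V], with the same 2 libraries on top. The snoRNAs *SNR128* (111%, on 8.80 counts on average) and *SNR17A* (94.5%) and the spliceosomal *SNR7-S* (75.7%) also had their highest 2 values in the clone a libraries. Without those 2 libraries the coefficient of variation was 33.0% for *SCR1*, 27.4% for *SNR17A*, 26.5% for *SNR7-S*, 84.0% for *SNR128*, 79.0% for *TAR1* and 167% for *YLR154C-G*. The part of the rRNA content in these values was not tested. The sources differ on an mRNA kit or a total RNA kit, so levels of *SCR1*, the snoRNAs and *SNR7-S* cannot be set against those of mRNA. Whether their range is one of RNA in the cells was not tested.

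Some of the most variable genes rested on few reads. *PMP1* (153%) and *PMP2* (66.5%), for small regulators of the plasma membrane proton pump, averaged 1.60 and 2.20 counts over effective lengths of 3.05 and 5.05 bases. YHR032C-A, YBR223W-A, YOR161C-C, YLR347W-A and YFR010W-A, with 2.55 to 12.9 counts on average, were of the same kind. YOR142W-A, a Ty1 retrotransposon gene, and the subtelomeric YFL068W, YLL066W-A and YLL067W-A, like YPL250W-A, had estimated counts that were not whole, which marks reads that fit more than 1 gene. YFL068W had 52.4 TPM in 25Q [SLX5] a and at most 21.7 TPM in the other 4 libraries, and in that same library YLL066W-A and YLL067W-A stood at 0.020 TPM, against 13.6 to 21.7 TPM elsewhere.

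*SLX5* and *INO1* were the long protein-coding genes with whole counts among the 20. *SLX5* had 410, 410 and 397 TPM in 25Q [SLX5] clones a, b and c, and 32.6 and 34.9 TPM in 25Q [V] clones a and b. The group with the *SLX5* plasmid was higher in every library. Around its group means its spread was 2.35%, against 79.3% over all 5 libraries. *INO1*, the inositol phosphate synthase that starts inositol synthesis, had 322, 40.4 and 79.3 TPM in 25Q [SLX5] and 16.8 and 163 TPM in 25Q [V]. Here the groups overlapped: the highest library was 25Q [SLX5] a and the lowest 25Q [V] a, 19.2-fold apart, and around the group means the spread was 111%.

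*INO1* was joined by other genes of phospholipid synthesis, a list of 20 chosen after these values were seen. *OPI3*, a methyltransferase of phosphatidylcholine synthesis, had 1168, 680 and 788 TPM in 25Q [SLX5] clones a, b and c, and 425 and 957 TPM in 25Q [V] clones a and b. *CHO1*, phosphatidylserine synthase, had 436, 300 and 343 TPM in 25Q [SLX5] and 233 and 404 TPM in 25Q [V]. The inositol transporter gene *ITR1* had 232, 185 and 189 TPM in 25Q [SLX5] and 129 and 230 TPM in 25Q [V]. In all 4 genes the libraries took the same order, 25Q [SLX5] a, 25Q [V] b, 25Q [SLX5] c, 25Q [SLX5] b and 25Q [V] a from high to low. Of the 19 members with a mean of at least 10 TPM, 15 were lowest in 25Q [V] a, where 30.3% of all 5004 genes were lowest. The median level of the 19 there was 0.23 below the mean of the 5 libraries on the log2 scale. The top of that order was not shared by most members: 6 were highest in 25Q [SLX5] a and 12 in 25Q [V] b. Their medians there were 0.06 and 0.17 above the mean. The phosphatidylinositol synthase gene *PIS1* (coefficient of variation 3.13%) and *PCT1* (2.30%) moved little. The regulators themselves varied less than their best known target: *INO2* had 13.7%, *INO4* 9.47% and *OPI1* 8.81%.

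The core of the element that Ino2 and Ino4 bind (CATGTG, or CACATG on the other strand) stood in the 500 bases before 787 of 5980 genes, or 13.2%, and before 15 of the 20 phospholipid genes. The regions before the 3 genes with more than 1 copy among those 4 are shown, on the strand of each gene and with the core in capitals.
INO1, chrX:136104-136183, minus strand: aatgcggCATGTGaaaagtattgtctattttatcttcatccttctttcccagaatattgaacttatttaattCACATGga
OPI3, chrX:573076-573155, minus strand: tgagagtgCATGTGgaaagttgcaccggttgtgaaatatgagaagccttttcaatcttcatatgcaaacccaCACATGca
ITR1, chrIV:1445683-1445862, minus strand: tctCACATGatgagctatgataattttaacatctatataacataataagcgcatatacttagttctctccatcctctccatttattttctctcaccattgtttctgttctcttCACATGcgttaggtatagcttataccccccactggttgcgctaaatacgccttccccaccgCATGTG
*CHO1* had 1 copy in its window. *ARG1* and *MET17*, which took another order of libraries, had 1 copy each as well. Whether the core goes with the order of libraries was not tested.

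Genes of the pheromone response varied along a different order. *MF(ALPHA)2* had 359, 497 and 225 TPM in 25Q [SLX5] clones a, b and c, and 424 and 212 TPM in 25Q [V] clones a and b. *FUS1*, a cell fusion protein gene, had 14.6, 16.8 and 9.01 TPM in 25Q [SLX5] and 18.4 and 9.76 TPM in 25Q [V]. *SAG1* and *AGA1*, both agglutinin genes, were likewise lowest in 25Q [SLX5] c and 25Q [V] b, with *AGA1* at 12.8 and 11.3 TPM there and at 17.8 to 20.9 TPM in the other 3 libraries. Over 15 members of a list of 20, also chosen after the values were seen, the median level was 0.15 above the mean in 25Q [SLX5] b and 0.23 below it in 25Q [SLX5] c on the log2 scale, so that the difference ran between clones of one group. *STE4*, a G protein subunit (3.71%), and *FUS3* (5.75%) stayed near the typical spread.

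The pheromone response element bound by Ste12 (TGAAACA, or TGTTTCA on the other strand) was found before 720 of 5980 genes, or 12.0%, and before 13 of the 20 genes of that list. It is shown in capitals for the 2 most variable genes that hold 2 copies.
MF(ALPHA)2, chrVII:345344-345383, minus strand: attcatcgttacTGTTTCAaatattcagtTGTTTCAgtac
FUS1, chrIII:71608-71652, plus strand: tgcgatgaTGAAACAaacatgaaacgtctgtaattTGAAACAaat
All 7 a-specific genes held the element too, at mean levels between 1.01 and 6.56 TPM.

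A further set was highest in 25Q [V] a and lowest in 25Q [SLX5] a. Of 38 amino acid synthesis genes with a mean of at least 10 TPM, 31 showed this order, against 13.6% of all 5004 genes. *ARG1*, argininosuccinate synthetase, had 120, 150 and 146 TPM in 25Q [SLX5] clones a, b and c, and 303 and 232 TPM in 25Q [V] clones a and b. *SNZ1*, of vitamin B6 synthesis, had 227, 261 and 252 TPM in 25Q [SLX5] and 429 and 417 TPM in 25Q [V], and *LYS20*, homocitrate synthase, had 66.9, 78.1 and 75.3 TPM in 25Q [SLX5] and 130 and 116 TPM in 25Q [V]. These 3 genes, which are among the most variable long genes, were all highest in 25Q [V] a and lowest in 25Q [SLX5] a. A difference between the plasmid groups adds to the spread by which they were named, and none was tested. Around its group means *SNZ1* spread by 4.81%. The site of Gcn4 (TGACTC, or GAGTCA on the other strand) was found before 756 of 5980 genes, or 12.6%, and before 31 of the 39 amino acid genes, with 2 copies before *ARG1*, shown in capitals, 3 before *SNZ1* and none before *LYS20*.
ARG1, chrXV:218861-218945, plus strand: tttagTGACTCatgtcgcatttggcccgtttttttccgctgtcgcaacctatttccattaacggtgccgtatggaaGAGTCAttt
Cytosolic ribosomal protein genes leaned the same way, 69 of 135 with 25Q [V] a highest and 25Q [SLX5] a lowest, though by little: their medians were 0.08 above the mean and 0.08 below it on the log2 scale.

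Glycolysis genes, and most stress genes, were lowest in 25Q [V] a. This held for all 17 glycolysis genes, of which 11 were highest in 25Q [SLX5] c and 6 in 25Q [SLX5] a. On the log2 scale their median was 0.12 above the mean in 25Q [SLX5] a, 0.07 in b and 0.14 in c, and 0.27 and 0.10 below it in 25Q [V] a and b. *ENO1* had 1859, 1709 and 1894 TPM in 25Q [SLX5] clones a, b and c, and 1013 and 1331 TPM in 25Q [V] clones a and b, and *TDH1* had 682, 540 and 748 TPM in 25Q [SLX5] and 251 and 410 TPM in 25Q [V]. Both were highest in 25Q [SLX5] c and lowest in 25Q [V] a, and no difference between the groups was tested. Of 34 stress genes, 30 were lowest in 25Q [V] a and 20 highest in 25Q [SLX5] a, where 10.4% of all 5004 genes were highest. *HSP26*, a small heat shock protein gene, had 51.7, 30.9 and 35.0 TPM in 25Q [SLX5] and 23.3 and 36.0 TPM in 25Q [V].

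**Figure D5:**
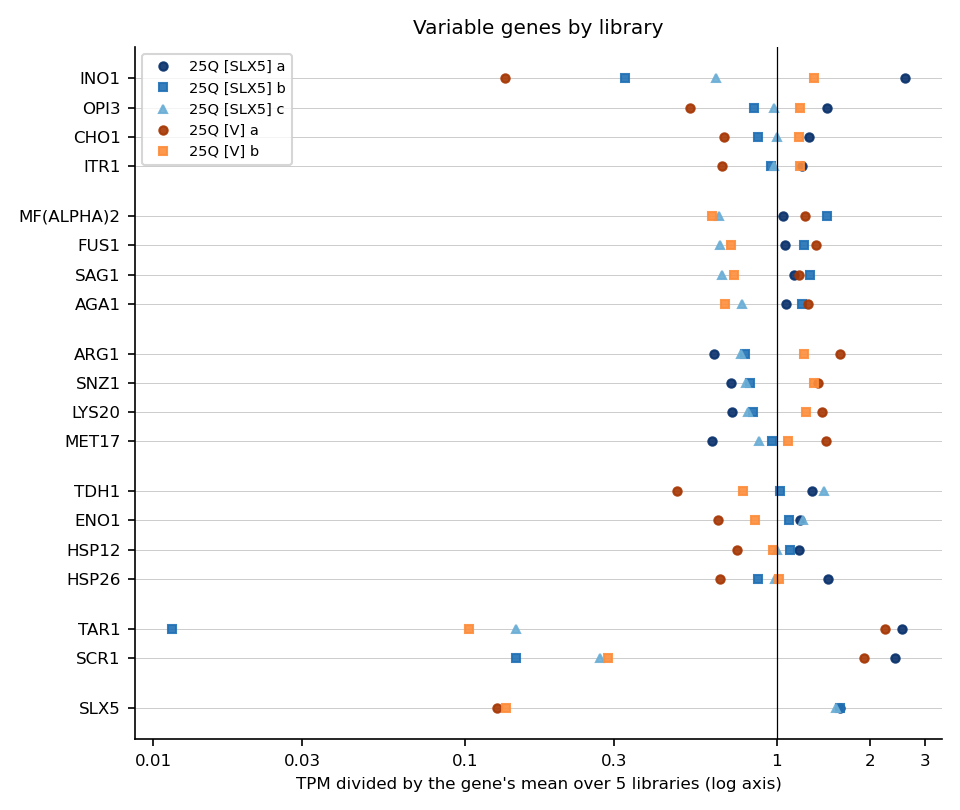
TPM of each gene divided by its mean over 5 libraries (log axis), one point per library, in blocks for phospholipid, pheromone, amino acid and vitamin, glycolysis and stress, rDNA and structural RNA genes and *SLX5*. The clone a libraries lie apart for *TAR1* and *SCR1*, 25Q [V] a is lowest for the phospholipid block, and the 25Q [V] libraries stand together for *SNZ1* and *SLX5*.

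At the other end, 10 genes had coefficients of variation of 1.01% or less. *MET31*, a zinc finger regulator of sulfur metabolism, had 65.9, 64.9 and 65.7 TPM in 25Q [SLX5] clones a, b and c, and 65.4 and 65.4 TPM in 25Q [V] clones a and b, a spread of 0.621%. *CBK1*, a kinase of polarized growth, followed at 0.634%, then *TLG1*, a SNARE of endosomal traffic (0.729%), *TRE2* (0.734%), and *RPP0*, the stalk protein of the ribosome (0.827%). *MTC5*, *SCT1*, *TFA1*, *PTP1* and *KAR1* completed the 10. Apart from *RPP0*, with 17656 counts on average, each spread was below what counting error alone would give (*MET31* averaged 937 counts). The lowest values among 5004 genes thus do not mark these genes as the steadiest. *ACT1* (6.44%) lay near the median of all genes, while among common reference genes *TUB1*, alpha tubulin, had 2.09% and *PGK1*, phosphoglycerate kinase, 16.2%. As a group the proteasome was the steadiest of those named, at a median of 3.02% over 33 genes, followed by the mitochondrial ribosome at 3.92% over 67.

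The set of the highest genes was largely shared with the 6 libraries of the Htt-103Q-NLS cultures: 19 of the 25 highest and 83 of the 100 highest by mean TPM were in the sets of the same size there. Differences between the 2 polyglutamine lengths were not compared here.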

How the data were processed

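RNA from 5 Htt-25Q-NLS cultures was sequenced in pairs of reads. Per the submitters' processing notes and the study's methods, the authors called bases with bcl2fastq 2.17, trimmed reads with Trimmomatic 0.36, aligned them with STAR 2.5.1 to transcripts of the S288C assembly EF4 and counted genes with RSEM 1.2.22. The authors deposited per library an expected count (RSEM's estimate, which may be fractional where reads fit several genes) and a TPM value for each gene, and these were used as deposited. The labels name a TruSeq mRNA stranded kit and the methods a total RNA kit, and the strand setting of the counting is not given in the sources used here. The members and gene lists were chosen with earlier results of these data known.

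TPM values were neither rescaled nor logged, except as stated. Ranks, shares, means, SDs and coefficients of variation were computed over 5 libraries with Python 3.11.15, pandas 2.3.3 and numpy 2.4.6, and the code was tested on simulated data. Shares are of all TPM, rRNA included. A mean of 1 TPM was taken as expressed, and spread was ranked at a mean of at least 10 TPM. Named were the 25 highest genes, the 20 most and 10 least variable, 15 named genes at 0, up to 6 highest and the lowest of each of 34 gene lists, and the galactose and marker genes. Another 2 lists and some genes were added after values were seen, as stated beside them. Gene names and coordinates come from RefSeq R64, in which 688 IDs had no entry. Lengths are coding lengths without untranslated regions. Replicates were separate clones, and counting error was not given an interval except where a count was 0. No comparison between groups was tested. Alternatives were another unit, other filters and averages, another scaling, and libraries left out. The pooled count table repeats the expected counts and was not used.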

Additional observations from a re-analysis of the deposited data

Results flagged for a closer look

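In 137 results, 119 of them levels of single genes, the highest or lowest of the 5 libraries was set against the other 4 by its gap over the whole range, with 0.71 as the limit. Chance alone passes this limit in about 1 of 20 cases for results not picked by their values, and 7 passed it. The 119 genes included the 20 most and 10 least variable ones and the phospholipid and pheromone lists. Those were chosen by or after their values, so the rate of 1 in 20 does not apply to them. *ATP19* (ratio 0.873) had 5880 TPM in 25Q [SLX5] b, against 6118 to 6153 TPM in the other 4. *CBK1* (ratio 0.725) was lowest in the same library, at 30.9 TPM against 31.2 to 31.4 TPM. *PMP1* (ratio 0.757) had 56.2 TPM in 25Q [V] a and at most 13.7 TPM elsewhere, on 1.60 counts on average. *YFL068W* (ratio 0.846) had 52.4 TPM in 25Q [SLX5] a and at most 21.7 TPM elsewhere.

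The last 3 were phospholipid genes that were low in 25Q [V] a, from the list chosen after the values were seen. *INO4* (ratio 0.762), a subunit of the activator of inositol genes, had 156 TPM there against 190 to 200.5 TPM in the others. *CKI1* (ratio 0.715), choline kinase, had 34.8 TPM against 43.2 to 46.5 TPM. *PSD2* (ratio 0.760), a phosphatidylserine decarboxylase, had 14.99 TPM against 16.9 to 17.5 TPM.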

How the results depend on the processing

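No paired analysis was possible because the results come from no test. Depth and length set the limits: TPM of genes under 200 bases of effective length, of repeats and of overlapping IDs is uncertain, and only 5 libraries in 2 plasmid groups stand behind each spread. Counts in place of TPM gave 12.9% for the share of the 20 highest genes and kept 6 of those genes. With effective lengths under 200 bases left out these were 10.7% and 9 genes, and with nuclear protein-coding genes alone the share was 13.5%. The shares of ribosomal protein, glycolysis and galactose genes together, 24.9% of TPM, became 18.0% by counts and 22.1% without short genes; for ribosomal proteins they became 8.37% and 14.6%, for glycolysis 6.13% and 5.25%, and for galactose genes 3.52% and 2.31%. The median coefficient of variation was 6.93% at a mean of at least 1 TPM, 5.80% at 50 TPM, 7.25% with no filter, 5.29% around plasmid group means and 5.68% with counting error taken off. Leaving out 1 library gave 5.66% (without 25Q [V] a) to 6.59% (without 25Q [SLX5] b). Of the 20 most variable genes, 2 stayed at a mean of at least 1 TPM, 7 at 50 TPM and 7 without short genes. Under alternatives chosen after seeing the data, 10 stayed with at least 100 counts and 10 without both clone a libraries, where the median coefficient of variation was 5.39%. The number of genes of at least 1 TPM (6065 to 6316) and of genes at 0 (535 to 620) stayed within 1.5 times under the alternatives run.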

Other observations

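The translation initiation genes *TIF2* and *TIF1*, whose coding sequences differ at 6 of 1188 bases, had 654 and 422 TPM, and the elongation factor genes *EFT2* and *EFT1*, which differ at 4 of 2529 bases, had 549 and 287 TPM. Iron uptake genes were led by the ferroxidase gene *FET3* (346 TPM) and the wall mannoprotein gene *FIT2* (281 TPM), with a median of 23.8 TPM over 13 genes. Sterol synthesis genes were moderate, from *ERG20* (490 TPM) to *HMG2* (20.8 TPM), and their summed share was 0.364%, 0.387% and 0.390% in 25Q [SLX5] clones a, b and c, and 0.434% and 0.418% in 25Q [V] clones a and b. Phosphate genes were low apart from *VTC1* (306 TPM), of vacuolar polyphosphate synthesis, with *PHO84*, the high-affinity phosphate transporter gene, at 16.3 TPM and *PHO5*, the secreted acid phosphatase gene, at 11.2 TPM.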
